A study of Mus musculus with 2 samples.

Results

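Integrins are the cell surface receptors, and laminins the trimeric proteins, that together fasten cells to the basement membrane. All genes whose symbol names an integrin alpha chain (Itga), an integrin beta chain (Itgb1 to Itgb8) or a laminin alpha, beta or gamma chain (Lama, Lamb, Lamc) were taken, without regard to their values, which gave 36 of the 32285 genes counted. Of these, 35 are described here, and every count of members below is over these 35. Their unique molecular identifier counts (UMIs, each standing for 1 captured transcript) were followed through the cell classes of embryonic mouse skin in a Wntless mutant library and a wildtype library. Wntless (Wls) is the carrier that cells need to release Wnt proteins, and the design text states that mice carrying K14Cre were crossed with Wntless fl/fl mice. The keratin 14 promoter that drives this Cre is active in the epidermis, so the deletion is directed to the epidermis and not to the dermis. Which of these alleles the wildtype littermates carried is not given in the labels. Back and flank skin of littermates was taken at E14.5, separated with trypsin, stained with DAPI and sorted. Each library holds 2 to 3 embryos of 1 genotype pooled together, and both were prepared in parallel and sequenced on 1 lane. There is therefore 1 library per genotype and no replicate: no test was made, and every interval given here covers counting error only. Differences between embryos and between library preparations cannot be told apart from the genotype.

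A basement membrane is a sheet of laminin and type IV collagen networks joined by nidogens and perlecan. Each laminin is a trimer of 1 alpha, 1 beta and 1 gamma chain, and each integrin pairs 1 alpha with 1 beta chain. In epidermis a laminin with the Lama3 and Lamb3 chains is bound by the Itga6 and Itgb4 pair, which anchors basal cells through hemidesmosomes, while the Itga3 and Itgb1 pair binds the same laminin elsewhere along the membrane. Hair follicles begin in such epidermis as placodes, thickenings of epidermal cells, above a dermal condensate, a knot of fibroblasts.

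The mutant library held 10449 barcodes with a median of 14602 UMIs, and the wildtype library 9065 barcodes with a median of 11341 UMIs. Dermal cells were those on the authors' own lists, 5028 mutant and 5300 wildtype cells. The other classes came from clusters named by marker genes, with the 36 genes left out of the clustering. The mutant library gave 160 epidermis-like, 220 mural-like, 97 endothelial-like, 479 muscle-like, 231 Schwann-like, 402 macrophage-like and 254 mast-like cells. The wildtype library gave 488 epidermis-like, 221 mural-like, 64 endothelial-like, 515 muscle-like, 236 Schwann-like, 339 macrophage-like and 158 mast-like cells. The 13 epidermal markers summed to 5450 and 4804 CPM (UMIs scaled to the same total in every class and library) in the mutant and the wildtype epidermis-like cells, against 39.2 CPM in mutant and 45.0 CPM in wildtype dermis. The endothelial-like cluster was led by Ccl21a, a gene of lymphatic vessels, beside general endothelial genes, so blood and lymphatic vessel cells were not separated. As a check of the labels, Wls had 23 UMIs (5.49 CPM) in mutant epidermis and 1055 UMIs (131 CPM) in wildtype epidermis, while Wls in the dermis was nearer, with 77.0 CPM for mutant and 91.8 CPM for wildtype cells. The barcodes of 19 cells occurred in both libraries, and leaving them out moved no value past its counting interval. In erythroid cells, whose precursors are known to carry Itga4 and Itgb1, all 35 together had 93 UMIs (1394 mutant cells) and 69 UMIs (637 wildtype cells).

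Epidermal cells with at least 3 of 8 core placode genes (Dkk4, Shh, Fgf20, Bmp2, Edar, Wif1, Ltb and Sp5) numbered 3 of 160 in the mutant and 207 of 488 in the wildtype. The 3 mutant cells had a median of 54806 UMIs and 10359 CPM of the 10 fibroblast markers, against 13960 UMIs and 1744 CPM in the wildtype placode cells, and Dkk4, Shh and Fgf20 were at 0 in them. They are not described as placode cells below. Epidermis without placode genes means the other 157 mutant and 281 wildtype cells, those with fewer than 3 of the 8 genes. Some counts of these genes remained there, mostly in the wildtype. Ltb had 54 mutant and 169 wildtype UMIs, Wif1 0 and 67, Bmp2 4 and 58, and Dkk4 0 and 30.

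The promoters of 4 chains are shown because the results turn on them: Lamb3, lower in mutant epidermis; Lama5, the most counted laminin alpha chain of epidermis in both libraries; Itga4, higher in mutant dermis; and Lama2, high in the wildtype dermal condensate. These are the 250 bases before the RefSeq start in build GRCm38.p6, at chr1:193301744-193301993 (plus strand) for Lamb3, chr2:180225860-180226109 (minus strand) for Lama5, chr2:79255176-79255425 (plus strand) for Itga4 and chr10:27616943-27617192 (minus strand) for Lama2, each read 5′ to 3′ on its gene's strand. Capitals mark matches on either strand to the GC box GGGCGG or to the TCF/LEF core TCAAAG.
Lamb3: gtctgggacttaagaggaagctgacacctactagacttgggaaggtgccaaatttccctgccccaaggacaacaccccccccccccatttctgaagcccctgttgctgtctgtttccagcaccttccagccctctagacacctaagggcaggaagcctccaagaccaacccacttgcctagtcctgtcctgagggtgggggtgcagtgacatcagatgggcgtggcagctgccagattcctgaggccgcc
Lama5: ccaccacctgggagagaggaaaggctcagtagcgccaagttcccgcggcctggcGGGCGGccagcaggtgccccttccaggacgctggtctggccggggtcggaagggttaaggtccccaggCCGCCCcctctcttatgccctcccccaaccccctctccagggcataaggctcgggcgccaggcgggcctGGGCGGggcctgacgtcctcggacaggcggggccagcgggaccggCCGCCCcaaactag
Itga4: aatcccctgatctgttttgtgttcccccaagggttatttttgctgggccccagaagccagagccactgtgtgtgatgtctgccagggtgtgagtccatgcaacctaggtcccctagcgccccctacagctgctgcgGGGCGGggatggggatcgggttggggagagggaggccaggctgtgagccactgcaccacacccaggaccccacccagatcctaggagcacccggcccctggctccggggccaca
Lama2: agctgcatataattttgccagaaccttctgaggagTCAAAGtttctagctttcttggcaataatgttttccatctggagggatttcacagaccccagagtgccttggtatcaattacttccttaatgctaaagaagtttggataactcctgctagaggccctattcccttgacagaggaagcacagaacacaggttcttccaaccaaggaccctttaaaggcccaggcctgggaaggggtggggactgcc
The Lama5 window holds 4 GC boxes, the Itga4 window 1, the Lama2 window 1 TCF/LEF core, and the Lamb3 window neither motif. Of all 32851 mouse promoters in the same table, 32.7% hold a GC box, 13.8% a TCF/LEF core and 6.75% the AP-1 motif TGANTCA. The table held 26 promoter entries for 23 of the 35 genes. Of these 26 entries, 9 held a GC box, 4 a TCF/LEF core and 1 the AP-1 motif. Base composition also differed, with 72.4% G and C in the Lama5 window and 47.2% in the Lama2 window, against a median of 52.4% over all promoters. The Lamb3 and Lama2 windows lie inside the annotated genes, at chr1:193207699-193343878 and chr10:26980036-27619758. Each of these windows therefore stands for 1 start, with another annotated start upstream of it. A match of letters is a description of the window and not a bound site.

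The classes differed in the laminin chains they made. CPM is given per class total. Because the assay counts the 3′ end of each transcript once, levels were not divided by gene length, although capture can differ between genes. In epidermis the alpha chains were mainly Lama5, at 26.7 CPM in mutant and 29.8 CPM in wildtype cells, and Lama3, at 19.3 CPM in mutant and 17.9 CPM in wildtype cells. Lama5 made up 47.5% of laminin alpha UMIs in mutant epidermis and 49.5% in wildtype epidermis, and Lama3 made up 34.3% in the mutant and 29.7% in the wildtype. Of the 5 laminin alpha chains, these had their highest level in the epidermis in both libraries. In the dermis Lama4 made up 76.5% of the alpha UMIs in the mutant and 70.7% in the wildtype, followed by Lama2 with 19.9% in the mutant and 21.1% in the wildtype, and then by Lama1 with 3.6% in the mutant and 7.9% in the wildtype. Lama5 was close to absent from dermal cells, with 4 UMIs among 81179288 in the mutant and 11 among 62876844 in the wildtype. Muscle-like cells split their alpha UMIs between Lama4 (40.5% in the mutant, 42.0% in the wildtype), Lama2 (40.1% in the mutant and 35.8% in the wildtype), the alpha chain of the muscle fibre sheath, and Lama5 (19.1% in the mutant, 20.8% in the wildtype).

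**Figure D1:**
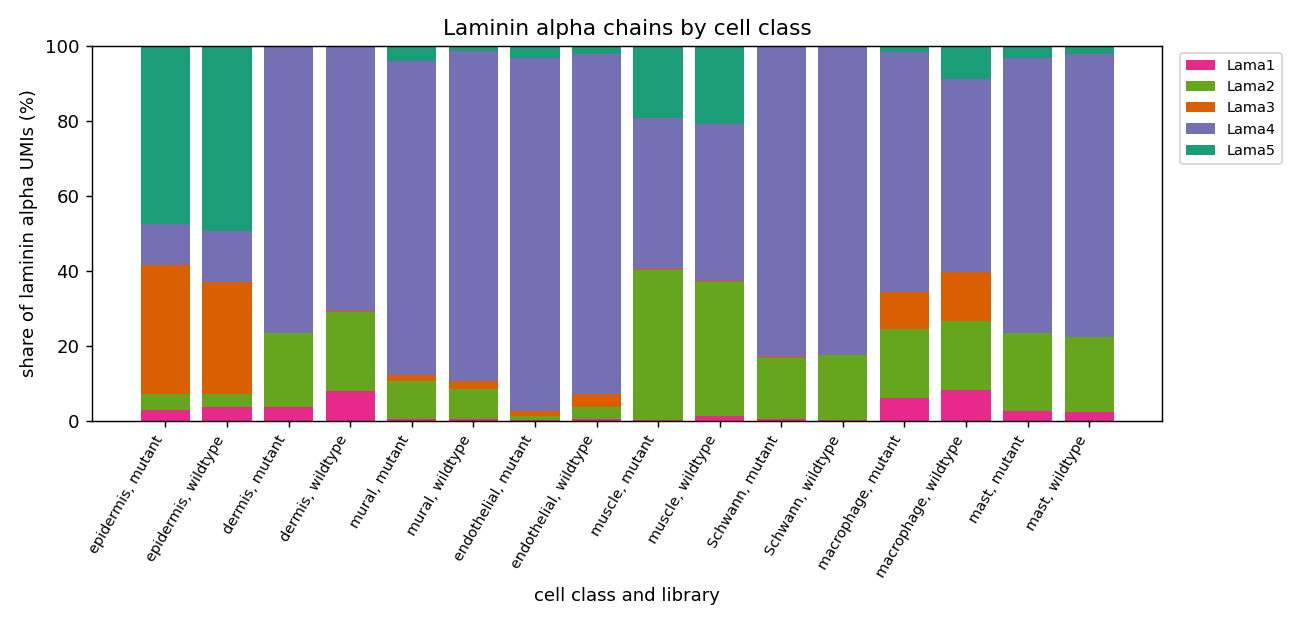
Share of each laminin alpha chain in the laminin alpha UMIs of a class, in percent, with the mutant bar left of the wildtype bar for each of 8 classes. Epidermis is mostly Lama5 and Lama3, muscle holds Lama2, Lama4 and Lama5, and Lama4 is above 70% in both libraries in dermis, mural, endothelial, Schwann and mast-like cells. Shares do not show levels: all laminin alpha chains together had 120 UMIs (13.4 CPM) in mutant and 45 UMIs (11.2 CPM) in wildtype mast-like cells.

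Schwann-like cells, the glia that wrap nerves, had the highest CPM of any class for Lama4, at 183 in the mutant and 170 in the wildtype. They also led for Lamb1 (191 CPM in mutant and 168 CPM in wildtype cells), Lamc1 (111 CPM in mutant and 99.3 CPM in wildtype cells) and Lama2 (35.8 CPM in mutant and 35.7 CPM in wildtype cells). Endothelial-like cells came next for Lama4, at 165 CPM in mutant and 159 CPM in wildtype cells, and mural-like cells, the pericytes and smooth muscle of vessel walls, after them at 110 CPM in mutant and 107 CPM in wildtype cells. In these vessel and nerve classes Lama4 and Lamb1 accounted for most laminin counts of their chain type. Lamb1 was lowest in macrophage-like cells, at 6.89 CPM in mutant and 13.7 CPM in wildtype cells, and mast-like cells, at 8.80 CPM in mutant and 7.72 CPM in wildtype cells. Lamb2 was highest in the dermis, at 42.7 CPM in the mutant, against 33.5 CPM in the wildtype. Of the 8 classes, Lamc3 was highest in mural-like cells, at 7.08 CPM in mutant and 3.63 CPM in wildtype cells. Wildtype condensate cells, counted within the dermis in these rankings, had more Lamc3 and Lama2 than any of the 8 classes and are given below.

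**Figure D2:**
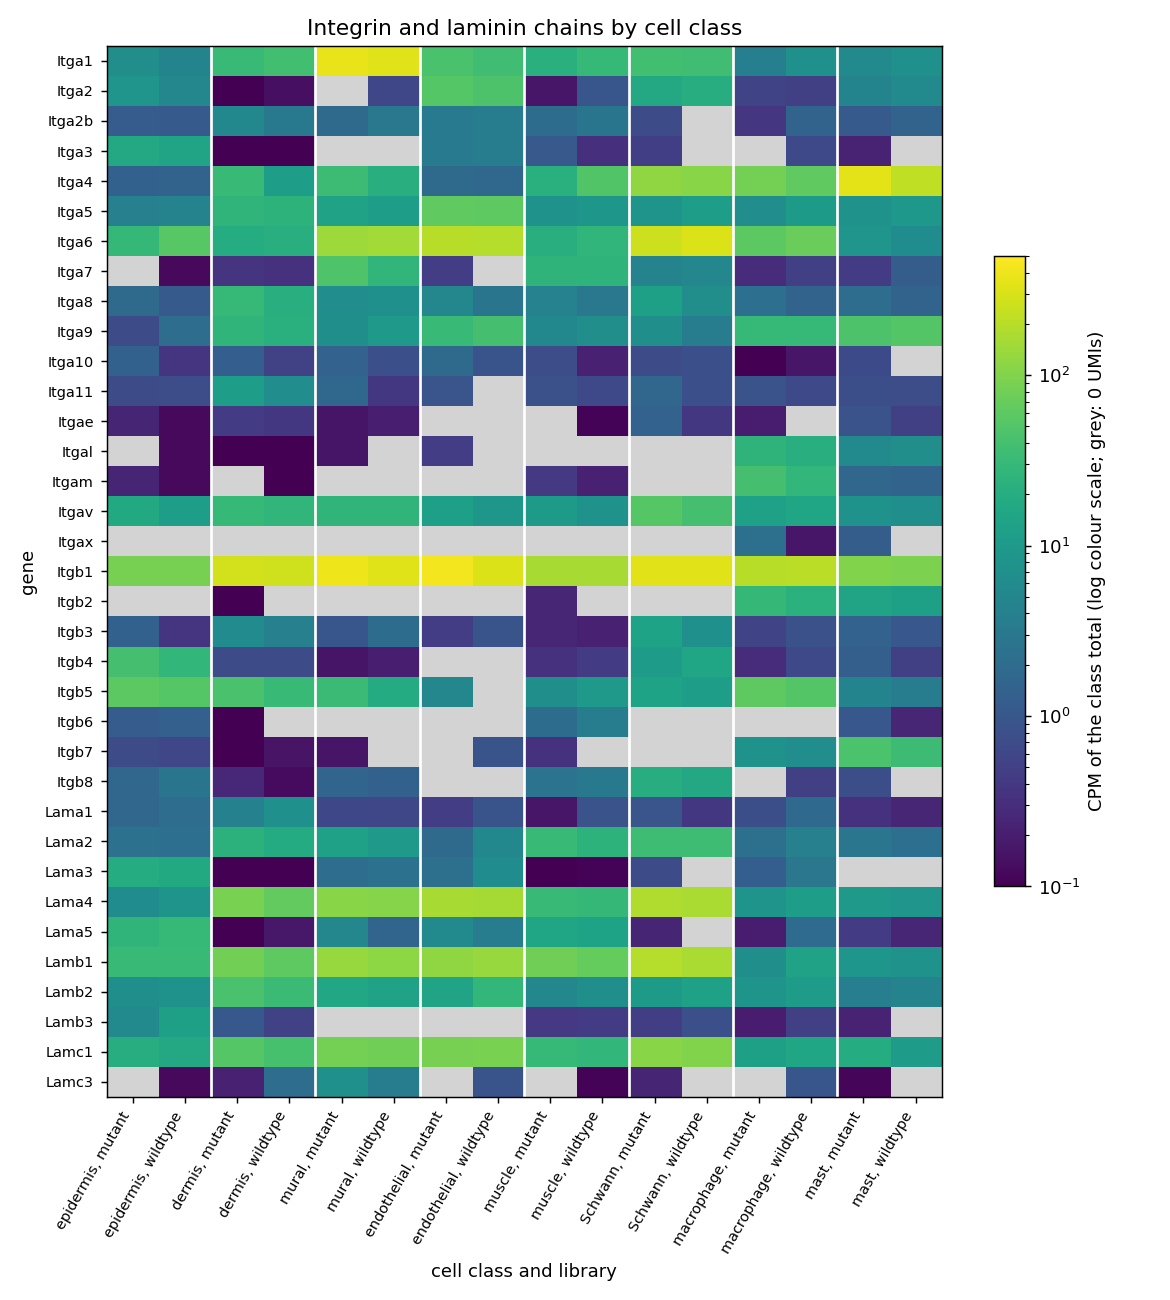
Level of 35 chains (rows) in 8 classes (columns, mutant left of wildtype in each pair), in CPM on a log colour scale, with grey for 0 UMIs. Itga3, Itgb4, Lama3, Lama5 and Lamb3 stand out in epidermis, and Itgal, Itgam, Itgb2 and Itgb7 in the blood cell classes.

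The integrin chains were divided between the classes as well. Among the 34 members with at least 20 UMIs in each library, 30 had the same class at the top in both: 8 in Schwann-like cells, 5 in epidermis, 4 in dermis, 3 each in mural-like, endothelial-like, macrophage-like and mast-like cells, and 1 in muscle-like cells. The member under that minimum was Itgax, with 35 UMIs in the mutant and 1 in the wildtype over the 8 classes. The epidermal 5 were the laminin receptor chains Itga3 and Itgb4 with Lama3, Lama5 and Lamb3. Itga6, the partner of Itgb4, was not among them: it was highest in Schwann-like cells, at 263 CPM in the mutant, against 315 CPM in the wildtype, then in endothelial-like cells at 197 CPM in mutant and 191 CPM in wildtype cells and in mural-like cells at 143 CPM in mutant and 152 CPM in wildtype cells. Itgb4 in Schwann-like cells was at 10.8 CPM in mutant and 15.5 CPM in wildtype cells. Itgb1, the beta chain shared by most laminin and collagen receptors, was the most counted integrin in the dermis at 276 CPM in mutant and 267 CPM in wildtype cells and was lowest in epidermis at 87.6 CPM in mutant and 86.4 CPM in wildtype cells. Its 3 highest classes, endothelial-like, mural-like and Schwann-like, changed order between the libraries.

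Collagen receptor chains followed other lines. Among the 8 classes, Itga1 was highest in mural-like cells, at 371 CPM in the mutant, against 326 CPM in the wildtype. The next class was more than 8-fold lower in both. Wildtype condensate cells, counted within the dermis here, came nearer and are given below. Pelo lies on the same strand within Itga1, so some counts there could belong to either gene. Other members also overlap genes on their own strand, among them Itga6 (Gm13662 and Gm13663) and Lamb3 (4930570N18Rik and Gm37691). Itga2 was highest in endothelial-like cells (52.3 CPM in mutant and 46.9 CPM in wildtype cells), and Itga11 in dermis (11.4 CPM in mutant and 6.44 CPM in wildtype cells). For fibronectin, Itga5 was highest in endothelial-like cells at 63.1 CPM in mutant and 61.4 CPM in wildtype cells. Itga8, the receptor chain for nephronectin, was highest in dermis (30.6 CPM in mutant and 21.4 CPM in wildtype cells). Itga7, a laminin receptor chain known from muscle, was highest in mural-like cells in both libraries, at 47.1 CPM in the mutant, against 26.8 CPM in the wildtype, and muscle-like cells had 25.5 CPM in mutant and 25.6 CPM in wildtype cells. The wildtype mural and muscle levels lay within each other's counting error. Itgb6 was the member led by muscle-like cells, at 2.01 CPM in mutant and 3.71 CPM in wildtype cells. Itgb8, which together with Itgav activates latent TGF-beta, was highest in Schwann-like cells at 20.3 CPM in mutant and 17.1 CPM in wildtype cells, as were Itgav (52.1 CPM in mutant and 40.9 CPM in wildtype cells) and Itgb3 (14.1 CPM in mutant and 7.15 CPM in wildtype cells). The leukocyte chains Itgal, Itgam and Itgb2 were highest in macrophage-like cells, and Itga4, Itga9 and Itgb7 in mast-like cells. Itga2b, Itgae, Itgb1 and Itgb5 were the 4 members whose top class was not the same in both libraries. Itga10 and Itgae stayed under 2 CPM in each of the 8 classes of both libraries. Itga10 was also highest in endothelial-like cells in both, but with only 4 UMIs there in the mutant and 1 UMI in the wildtype. The UMI minimum for these rankings applied to the 8 classes together and not to the class at the top.

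In the epidermis the chains of this laminin and of its receptor did not move as one. Itga6 had 122 UMIs (29.1 CPM) in the mutant and 444 UMIs (55.2 CPM) in the wildtype, a log2 ratio of mutant over wildtype of -0.92 (95% counting interval -1.23 to -0.63). Lamb3 was lower as well, with 25 UMIs (5.97 CPM) in the mutant and 101 UMIs (12.6 CPM) in the wildtype (log2 -1.07, interval -1.77 to -0.43). Lama3, the alpha chain of the same laminin, was at 19.3 CPM in the mutant, against 17.9 CPM in the wildtype, with an interval of the log2 ratio from -0.30 to 0.51. Itgb4, the partner of Itga6, was at 40.6 CPM in the mutant, against 28.4 CPM in the wildtype (log2 0.52, interval 0.22 to 0.81), and Itgb1 at 87.6 CPM in mutant and 86.4 CPM in wildtype cells (interval -0.17 to 0.20).

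A member was counted as apart when its ratio was at least 1.5-fold with 20 or more UMIs over both sides. In epidermis 20 members reached that count minimum and 6 were apart, a background of 22.5% over all genes. Of these, 2 were higher in the mutant (background 7.71%), Itga2 at 8.59 CPM in mutant against 5.22 CPM in wildtype cells and Itgav at 17.4 CPM in mutant against 11.3 CPM in wildtype cells. The 4 lower ones (background 14.8%) were Itga6, Lamb3, Itga9 with 3 mutant and 17 wildtype UMIs, and Itgb8 with 7 UMIs in mutant and 22 UMIs in wildtype cells. The intervals of Itga9 and Itgb8 include no difference. The median log2 ratio of the 20 members was 0.01, against -0.10 over all genes. With size factors taken from the median of gene ratios in place of class totals, Itgb4 reached 0.60 on the log2 scale and so passed 1.5-fold. Without the top 8% of doublet scores, Itga1 came to 2.15 in place of 0.54 and Lama4 to -1.27 in place of -0.40, both past 1.5-fold.

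**Figure D3:**
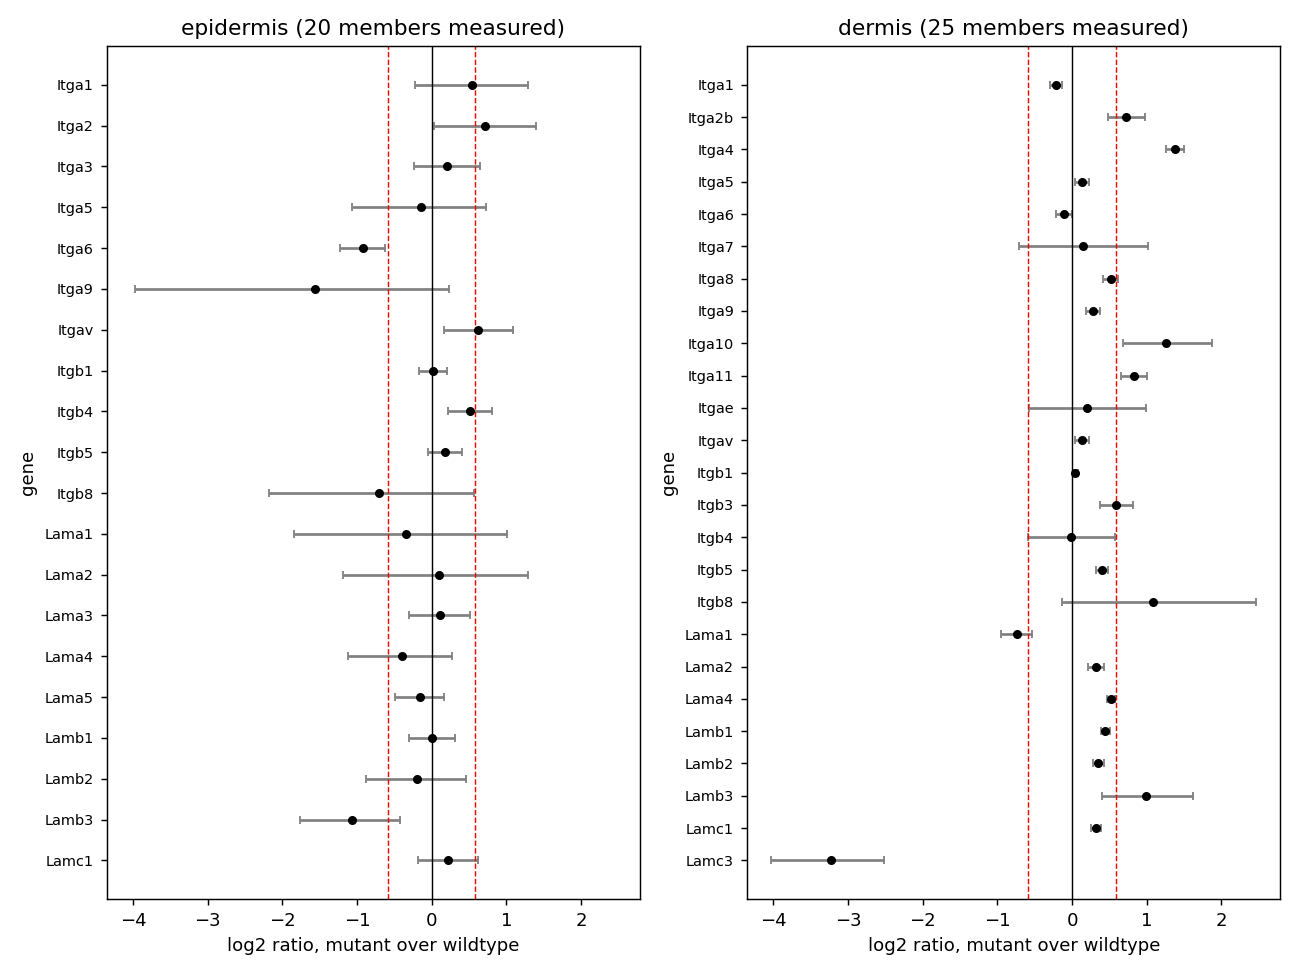
Log2 ratio of mutant over wildtype CPM for the members with at least 20 UMIs over both libraries, in epidermis (left, 20 members) and dermis (right, 25 members). Points are ratios, bars the 95% counting intervals and red dashed lines 1.5-fold; Itga6 and Lamb3 lie left of the line in epidermis, and Itga4 right of it in dermis.

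Because cells called placode cells were common in the wildtype only, the comparison was repeated without them. Itga6 was then at 27.8 CPM in the mutant, against 62.3 CPM in the wildtype (log2 -1.16, interval -1.49 to -0.85). The gap was therefore not smaller without the called cells. Lamb3 was at 6.21 CPM in mutant and 13.3 CPM in wildtype cells (log2 -1.10). Itgb4 was at 40.3 CPM in the mutant, against 35.9 CPM in the wildtype, with an interval from -0.15 to 0.48. Itga2 was no longer apart, at 7.95 CPM in mutant and 6.97 CPM in wildtype cells (log2 0.19, interval -0.55 to 0.93). Of 18 members measured, 5 were apart, with a background of 18.0%: Itgav was higher (17.4 CPM in mutant against 10.3 CPM in wildtype cells, background 6.47%), and Itga6, Lamb3, Lama1 and Lama2 were lower (background 11.5%). Lama1 and Lama2 had few counts (Lama1 7 mutant and 13 wildtype UMIs, Lama2 6 mutant and 14 wildtype UMIs), with intervals that include no difference, and as a mean over cells Lama1 came to -0.16 on the log2 scale. With placode cells called after thinning, Lama2 came to -0.22. The median of the 18 was -0.07, against -0.09 over all genes. The fibroblast markers summed to 1442 CPM in mutant and 1530 CPM in wildtype epidermis-like cells, and their part in the dermal chains there was not tested.

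As a share of cells, after each cell was thinned to 9000 UMIs, 24.0% of 154 mutant epidermal cells (exact interval 17.5 to 31.6%) and 36.5% of 446 wildtype epidermal cells (32.1 to 41.2%) had an Itga6 UMI. Without thinning the shares were 46.9% in mutant and 49.8% in wildtype cells, at median depths of 23654 UMIs in mutant and 15050 UMIs in wildtype cells. For Lama5 the thinned shares were 22.1% in mutant and 23.5% in wildtype epidermis, against 0 of 4661 mutant cells (exact upper bound 0.0791%) and 3 of 4000 wildtype cells in the dermis, where cells had medians of 15566 UMIs in mutant and 11154 UMIs in wildtype cells.

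Within wildtype epidermis, placode cells had fewer counts of the hemidesmosome chain Itgb4. It had 53 UMIs (16.7 CPM) in placode cells and 175 UMIs (35.9 CPM) in other epidermal cells (log2 -1.10, interval -1.57 to -0.65). Itga6 was at 44.2 CPM in placode and 62.3 CPM in other cells (log2 -0.50, interval -0.79 to -0.20), short of 1.5-fold. Lama3 was at 12.3 CPM in placode cells and 21.5 CPM in other cells (log2 -0.81), while Lamb3 was nearer, at 11.4 CPM in placode and 13.3 CPM in other cells. Lama5 was at 29.4 CPM in placode and 30.1 CPM in other cells, and Itgb1 at 103 CPM in placode cells against 75.9 CPM in other cells. Of 17 members measured, 5 were apart, beside a background of 25.0%: Itgb8 was higher in placode cells (14 UMIs or 4.42 CPM in placode cells against 8 UMIs or 1.64 CPM in other cells, background 14.6%), and Itga1, Itga2, Itgb4 and Lama3 were lower (background 10.4%). Itga2, a collagen receptor chain, had 8 UMIs (2.53 CPM) in placode cells and 34 UMIs (6.97 CPM) in the others, and Itga1 had 10 UMIs in placode and 27 UMIs in other cells, with an interval that includes no difference. With placode cells called after every cell was thinned to 1 depth, Lama3 came to -0.47 and Itga1 to -0.44 on the log2 scale, so neither passed 1.5-fold. With at least 2 core genes required, Itga1 came to -0.14 and Itga2 to -0.62. The median of the 17 members was -0.24, against 0.06 over all genes.

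**Figure D4:**
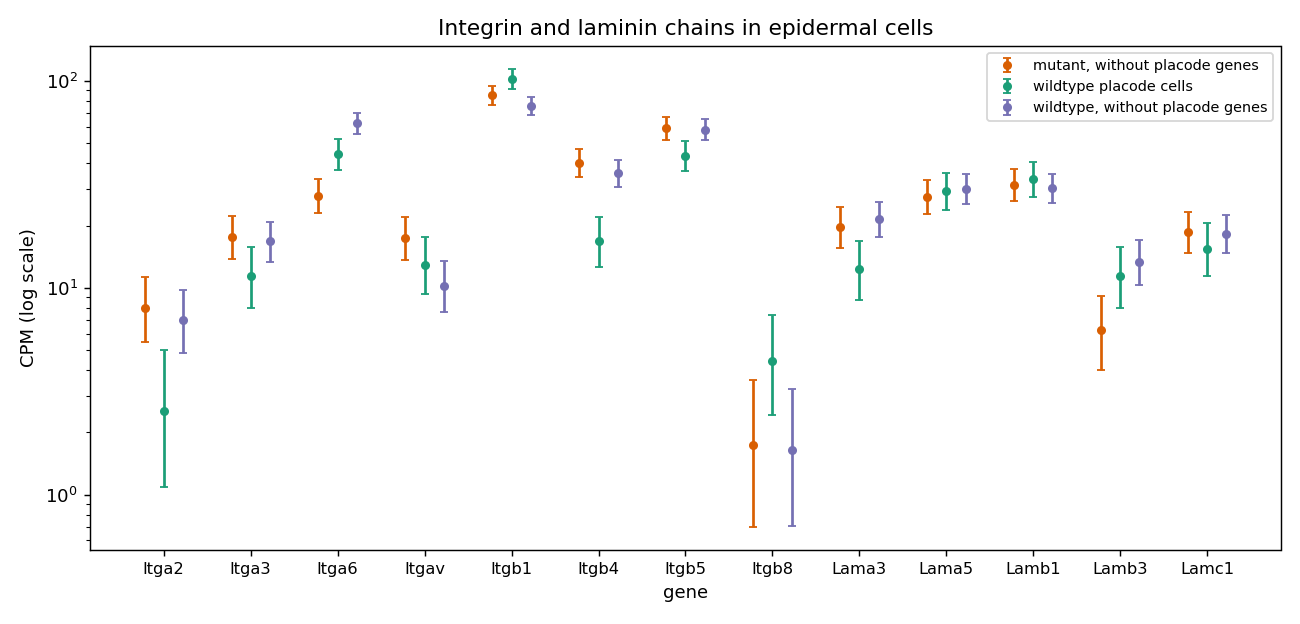
CPM (log scale) of 13 chains in mutant epidermal cells without placode genes, in wildtype placode cells and in wildtype epidermal cells without placode genes, with 95% counting intervals. Itga6 is lowest in the mutant cells and Itgb4 in the wildtype placode cells, while Lamb3 is lowest in the mutant cells.

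Dermal cells of the mutant had more counts of Itga4 and Itga11, and fewer of Lama1 and Lamc3. Itga4, the alpha chain that binds VCAM1 and fibronectin, had 2503 UMIs (30.8 CPM) in the mutant and 745 UMIs (11.8 CPM) in the wildtype (log2 1.38), with intervals of 29.6 to 32.1 CPM in the mutant and 11.0 to 12.7 CPM in the wildtype. After thinning, 20.8% of 4661 mutant and 9.68% of 4000 wildtype dermal cells had an Itga4 UMI (29.8% in the mutant and 11.2% in the wildtype without thinning), against 1.30% of mutant and 1.12% of wildtype epidermal cells. Itga11, a fibroblast receptor chain for fibrillar collagen, was at 11.4 CPM in mutant and 6.44 CPM in wildtype cells (log2 0.83). Lama4 was at 91.6 CPM in mutant and 63.6 CPM in wildtype cells (log2 0.53), Lamb1 at 81.7 CPM in mutant and 59.9 CPM in wildtype cells (log2 0.45) and Itga8 at 30.6 CPM in mutant and 21.4 CPM in wildtype cells (log2 0.52), all short of 1.5-fold. Itgb1 was at 276 CPM in the mutant, against 267 CPM in the wildtype. In the other direction, Lama1 was at 4.26 CPM in the mutant, against 7.12 CPM in the wildtype (log2 -0.74, interval -0.95 to -0.54). Lamc3 had 18 UMIs (0.222 CPM) in the mutant and 131 UMIs (2.08 CPM) in the wildtype (log2 -3.23, interval -4.03 to -2.52).

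In all, 25 members were measured in the dermis and 9 were apart, beside a background of 16.5% over 15609 genes. The 7 higher members (background 10.9%) were Itga4, Itga11, Itga10, Itga2b, Itgb3, Itgb8 and Lamb3, and the 2 lower ones (background 5.64%) Lama1 and Lamc3. Their counts ranged widely. In mutant against wildtype cells, Itga2b had 426 against 200 UMIs (log2 0.72), Itga10 102 against 33 (1.26), Itgb3 496 against 255, Lamb3 85 against 33 (0.996) and Itgb8 22 against 8 (1.09). The interval of Itgb8 includes no difference. Itgb3 lay on the line at 0.59 and was under 1.5-fold in 6 alternatives, with values between 0.52 and 0.58. The median log2 ratio of the 25 members was 0.33, against 0.03 over all genes. The 10 fibroblast markers also summed to more in the mutant, at 22213 CPM in the mutant against 16066 CPM in the wildtype, and their part in these levels was not tested.

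The dermis is not the same mixture of cells in both libraries, so the members were also read within dermal clusters. A cluster led by Foxd1, Gal and Sox18, genes of the dermal condensate, held 1418 listed wildtype cells and no listed mutant cell. Its levels are not those of condensate cells alone: 273 wildtype dermal cells had at least 3 of the 8 condensate genes used below. In the finer clustering the cluster led by Foxd1, Sox18 and Gal held 221 listed cells. The finer clustering also parted the libraries elsewhere. Its cluster led by Igfbp5, Rspo1 and Cntn4 held 1949 mutant and 96 wildtype cells. A histone-led cluster held 14 mutant and 1060 wildtype cells, and another 679 mutant and 51 wildtype cells. Mutant and wildtype cells inside 1 of the coarser clusters below may therefore be unlike, and this was not tested. Itga4 was higher in the mutant, with counting intervals of the levels that do not overlap, inside 4 of the 6 clusters with cells of both libraries: it was at 51.1 CPM in mutant against 24.5 CPM in wildtype cells in the cluster led by Igfbp5, Pcsk6 and Rspo1, at 35.4 CPM in mutant against 14.9 CPM in wildtype cells in the histone-led cluster, at 38.1 CPM in mutant against 15.5 CPM in wildtype cells in the mitotic cluster led by Cenpf, and at 16.7 CPM in mutant against 5.87 CPM in wildtype cells in the cluster led by Aspn and Nppc. The intervals overlapped in the other two. In the cluster led by Mfap5 and Ccn3 it was at 1.51 CPM with 23 UMIs in the mutant and 1.35 CPM with 9 UMIs in the wildtype. In that led by Mfap5, Nppc and Pdpn it was at 4.12 CPM with 11 UMIs in the mutant and 7.57 CPM with 19 UMIs in the wildtype. Lama1 did not keep its direction: it was at 6.44 CPM in the mutant, against 4.86 CPM in the wildtype of the Igfbp5 cluster, and 13.0 CPM in the wildtype cluster led by Foxd1. Lamc3 was at 6.30 CPM in that Foxd1 cluster, which has no mutant counterpart, and at 0.307 and 0.162 CPM in the mutant and wildtype Igfbp5 cluster. Lamb3 was mostly counted in the clusters led by Mfap5, at 4.73 CPM in the mutant, against 3.61 CPM in the wildtype of the larger one, and 3.37 CPM in mutant and 2.39 CPM in wildtype cells in the smaller.

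Cells of the wildtype dermal condensate had a laminin set unlike that of other dermal cells. Dermal cells with at least 3 of 8 condensate genes (Sox2, Sox18, Foxd1, Gal, Trpm3, Inhba, Prdm1 and Bmp3) numbered 3 in the mutant and 273 in the wildtype, and only the wildtype was described. They were set against the 4791 wildtype dermal cells with fewer than 2 of these genes, and cells with exactly 2 were left out. Lama2 had 243 UMIs (82.6 CPM) in the condensate cells and 892 UMIs (15.7 CPM) in these other wildtype dermal cells (log2 2.40, interval 2.18 to 2.60). Lama4 ran the other way, at 23.1 CPM in condensate cells and 66.7 CPM in others (log2 -1.53, interval -1.90 to -1.18). Lamc3 was at 19.0 CPM in condensate and 1.18 CPM in other cells (log2 4.01), Lama1 at 17.7 CPM in condensate and 6.42 CPM in other cells (log2 1.46) and Lamc1 at 69.7 CPM in condensate and 40.6 CPM in other cells (log2 0.78). Lamb1 was at 71.3 CPM in condensate cells and 60.2 CPM in others, and Lamb2 at 20.7 CPM in condensate and 34.3 CPM in other cells.

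Their receptors differed too. Itga6 was at 65.6 CPM in condensate cells and 18.1 CPM in other dermal cells (log2 1.86, interval 1.63 to 2.08), and Itga1 at 106 CPM in condensate and 34.7 CPM in other cells (log2 1.60). Itga4 was at 3.06 CPM, with 9 UMIs, against 12.3 CPM in the others (log2 -2.01), and the vitronectin receptor chain Itgb5 at 15.6 CPM in condensate and 34.2 CPM in other cells (log2 -1.13). Itgb1 was at 269 CPM in condensate and 266 CPM in other cells. Of 22 members measured, 13 were apart beside a background of 37.8%. The 6 higher in condensate cells were Itga1, Itga6, Lama1, Lama2, Lamc1 and Lamc3 (background 17.3%), and the 7 lower were Itga4, Itga10, Itga11, Itgb4, Itgb5, Lama4 and Lamb2 (background 20.5%), of which Itga10 and Itgb4 rested on 1 UMI in condensate cells. The intervals of Itga10, Itga11 and Itgb4 include no difference. Leaving cells with 2 or more condensate genes out of both dermal libraries moved the mutant over wildtype ratio of Lamc3 to -2.37, still lower in the mutant, and that of Lama2 to 0.60, past 1.5-fold.

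In the vessel wall, mural-like cells of the mutant had more of 5 members and less of 1, of 19 measured (6 apart, beside a background of 11.4%, with 7.59% higher and 3.83% lower). Itga7 had 293 UMIs (47.1 CPM) in the mutant and 133 UMIs (26.8 CPM) in the wildtype (log2 0.81, interval 0.51 to 1.12), and Itgb5 was at 33.3 CPM in mutant and 19.2 CPM in wildtype cells (log2 0.80). Itga4 was at 34.6 CPM in mutant and 20.97 CPM in wildtype cells (log2 0.72), and at 0.53 when cells were gated 1 by 1 on markers. Lama5 had 32 UMIs in mutant and 8 UMIs in wildtype cells and Lamc3 had 44 UMIs in mutant and 18 UMIs in wildtype cells. Itga2b was the lower one, with 12 UMIs in mutant and 15 UMIs in wildtype cells and an interval that includes no difference. The 11 mural markers summed to 3835 CPM in the mutant, against 2838 CPM in the wildtype, and their part in these ratios was not tested. In endothelial-like cells 1 of 11 members was apart, with a background of 17.0%: Lamb2 was lower (background 5.98%), with 31 UMIs in each library, 14.6 CPM in the mutant, against 28.0 CPM in the wildtype (log2 -0.94, interval -1.70 to -0.17; -0.57 as a mean over cells). No member was apart upwards there, where 11.0% of genes were. Lama4, at 165 CPM in mutant and 159 CPM in wildtype cells, and Itga6, at 197 CPM in mutant and 191 CPM in wildtype cells, had intervals that include no difference. Erythroid genes summed to 5117 CPM in mutant and 18248 CPM in wildtype endothelial-like cells. The 10 fibroblast markers summed there to 861 CPM for the mutant and 1142 CPM for the wildtype, and the 13 epidermal markers to 16.0 CPM for the mutant and 74.0 CPM for the wildtype. Their part in the Lamb2 ratio was not tested. The median log2 ratio of the members was 0.19 in mural-like cells (0.01 over all genes) and 0.04 in endothelial-like cells (0.03 over all genes).

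In muscle-like cells Itga4 ran against the dermis. It had 264 UMIs (22.1 CPM) in the mutant and 459 UMIs (50.1 CPM) in the wildtype (log2 -1.18, interval -1.41 to -0.96). The direction was the same in both muscle clusters of the finer clustering: 24.1 CPM in the mutant, against 52.2 CPM in the wildtype of the cluster led by Myog, Actc1 and Tnnt2, genes of differentiating muscle, and 19.4 CPM in mutant and 45.9 CPM in wildtype cells in the cluster led by Msc, Pax7 and Myod1, genes of muscle progenitors. The only other member apart was Itgb6, with 24 UMIs (2.01 CPM) in the mutant and 34 UMIs (3.71 CPM) in the wildtype, which made 2 of 19 beside a background of 9.83% (5.65% lower). No member was apart upwards, where 4.18% of genes were. Itga7 was at 25.5 CPM in mutant and 25.6 CPM in wildtype cells and Lama5 at 15.4 CPM in mutant and 14.2 CPM in wildtype cells. The 10 muscle markers summed to 3749 CPM in the mutant, against 5000 CPM in the wildtype, and their part was not tested. The median of the members was -0.17, against -0.04 over all genes.

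Schwann-like cells of both libraries had similar laminin levels, with Lama4, Lamb1, Lamc1 and Lama2 all within 1.5-fold. Itga6 was at 263 CPM in the mutant, against 315 CPM in the wildtype (log2 -0.26, interval -0.40 to -0.13). Of 19 members, 3 were apart, all higher in the mutant, beside a background of 13.0% (8.87% higher, 4.17% lower): Itga8 with 53 UMIs in mutant and 17 UMIs in wildtype cells, Itgb3 with 59 UMIs in mutant and 18 UMIs in wildtype cells and Itga9 with 29 UMIs in mutant and 9 UMIs in wildtype cells. The interval of Itga9 includes no difference, and it came to 0.40 on the log2 scale without the top 8% of doublet scores. Fibroblast markers summed to 3574 CPM in mutant and 1736 CPM in wildtype Schwann-like cells. All 3 of these chains were also counted in the dermis, and in the mutant dermis Itga8 was at 30.6 CPM, Itgb3 at 6.11 CPM and Itga9 at 26.6 CPM, and the part of fibroblast RNA was not tested. The median of the members was 0.10, against 0.02 over all genes.

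Macrophage-like cells had the leukocyte chains within 1.5-fold in both libraries, except Itgax. Itgam was at 40.8 CPM in the mutant, against 27.7 CPM in the wildtype (log2 0.56, and 0.64 with size factors from the median of gene ratios), Itgal at 25.1 CPM in mutant and 20.8 CPM in wildtype cells and Itgb2 at 29.2 CPM in mutant and 23.3 CPM in wildtype cells. Itgax, the chain used as a marker of dendritic cells and some macrophages, had 24 UMIs in 402 mutant cells and 1 UMI in 339 wildtype cells (log2 3.82, interval 1.20 to 9.18). Of 20 members, 7 were apart beside a background of 16.0%: Itgax and Itga8 were higher (background 4.64%), and Itga1, Itga5, Lama2, Lama3 and Lamb1 were lower (background 11.3%). In mutant against wildtype cells, Itga8 had 23 against 9 UMIs, Itga1 41 against 43, Itga5 67 against 62, Lama2 24 against 25 and Lama3 13 against 18. The intervals of Itga8 and Lama2 include no difference. Itga5 came to -0.57 with the other size factors. Lamb1 was at 6.89 CPM in the mutant, against 13.7 CPM in the wildtype, and at -0.18 on the log2 scale when cells were gated on markers. Fibroblast markers summed to 1360 CPM in mutant and 2481 CPM in wildtype cells, epidermal markers to 19.2 CPM in mutant and 124 CPM in wildtype cells and erythroid genes to 98679 and 59974 CPM in the mutant and the wildtype macrophage-like cells, and their part in the laminin counts was not tested. The median of the members was -0.17, against -0.08 over all genes.

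Mast-like cells had the highest Itga4 of any class, with 3182 UMIs (355 CPM) in the mutant and 879 UMIs (219 CPM) in the wildtype (log2 0.70, interval 0.59 to 0.80). Itgb7, which pairs with it on mast cell precursors, was at 44.1 CPM in mutant and 34.9 CPM in wildtype cells (log2 0.34), and Itga9 at 46.4 CPM in mutant and 50.5 CPM in wildtype cells. Lamc1 was the other member apart, with 177 UMIs in mutant and 45 UMIs in wildtype cells (19.7 CPM in mutant and 11.2 CPM in wildtype cells), which made 2 of 19 beside a background of 12.0% (8.29% higher). None was apart downwards, where 3.73% of genes were. In the dermis Lamc1 was at 52.8 CPM in mutant and 42.2 CPM in wildtype cells. The part of fibroblast RNA in the Lamc1 counts of mast-like cells was not tested. The median of the members was 0.20, against 0.03 over all genes.

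The partners of these chains in the basement membrane and at adhesions were read from a list of 40 genes. In epidermis 38 were measured, 7 higher (background 7.71%) and 10 lower (background 14.8%) in the mutant, with a median of -0.01 against -0.10 over all genes. Frem1, which builds the Fras1 and Frem complex under epidermis, had 11 UMIs (2.62 CPM) in the mutant and 324 UMIs (40.3 CPM) in the wildtype. Among cells with fewer than 3 core placode genes it was at 0.994 CPM in mutant against 19.9 CPM in wildtype cells (log2 -4.32). In wildtype placode cells it was at 71.7 CPM, against 19.9 CPM in other epidermal cells. Col7a1, the collagen of anchoring fibrils, was at 8.83 CPM in mutant and 18.8 CPM in wildtype epidermis (log2 -1.09). Fn1 was at 22.0 CPM in mutant and 73.9 CPM in wildtype cells (log2 -1.75) and Fbln1 at 65.9 CPM in mutant and 136 CPM in wildtype cells (log2 -1.05). Ntn4, a laminin-related netrin, was at 13.4 CPM in mutant and 5.22 CPM in wildtype cells (log2 1.36), and the type IV collagen chain Col4a6 at 11.0 CPM in mutant and 4.73 CPM in wildtype cells (log2 1.22).

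Placode cells of the wildtype had 6 of 37 measured partners higher (background 14.6%) and 7 lower (background 10.4%) than other epidermal cells. The lower ones included Dst (27.8 CPM in placode and 119 CPM in other cells, log2 -2.10) and Plec (16.1 CPM in placode and 37.5 CPM in other cells, log2 -1.22), which tie Itgb4 to keratin filaments, and Vcl (9.16 CPM in placode and 20.7 CPM in other cells). The higher ones included Fn1 (121 CPM in placode and 43.1 CPM in other cells) and Frem2 (75.5 CPM in placode and 29.7 CPM in other cells). In the dermis 9 of 37 partners were higher (background 10.9%) and 4 lower (background 5.64%) in the mutant, with a median of 0.07 against 0.03. Postn was at 597 CPM in the mutant, against 323 CPM in the wildtype (log2 0.89), Ntn4 at 2.00 CPM in mutant and 1.07 CPM in wildtype cells and Col17a1 at 1.56 CPM in mutant and 0.875 CPM in wildtype cells. Col7a1 was at 58.4 CPM in mutant and 102 CPM in wildtype cells (log2 -0.80), Bcam, a receptor for Lama5 laminins, at 1.42 CPM in mutant and 3.64 CPM in wildtype cells (log2 -1.36), and Spp1 at 10 UMIs in mutant and 43 UMIs in wildtype cells. In wildtype condensate cells 12 of 36 partners were higher (background 17.3%) and 7 lower (background 20.5%) than in other dermal cells. They included Col7a1 (348 CPM in condensate and 83.8 CPM in other cells), Col4a1 (488 CPM in condensate and 154 CPM in other cells), Sdc1 (234 CPM in condensate and 49.7 CPM in other cells) and Frem1 (146 CPM in condensate and 44.5 CPM in other cells), which were higher, and Nid2 (6.79 CPM in condensate and 41.0 CPM in other cells) and Npnt (1 UMI in condensate and 69 UMIs in other cells), which were lower.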

How the data were processed

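Single-cell 3′ RNA libraries (10x Chromium v3.1) of 1 Wntless mutant and 1 wildtype skin sample were analysed. The deposited matrices hold UMI counts of each gene in each barcode. Per the file headers they came from Cell Ranger 6.1.2; the build mm10 and Seurat are named in the submitters' processing notes. The authors also deposited barcode, gene and dermal barcode lists (other information, with no measurement); how dermal cells were chosen is not given in the sources used here. For 32235 of the 32285 identifiers, gene positions were found in GENCODE mouse release 21. The members, lists and rules were chosen with earlier results of these data known.

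All barcodes were normalised to 10000 counts per cell, logged and clustered jointly (scanpy 1.11.5, 2000 variable genes without the 36 members, 30 components, 15 neighbours, Leiden resolution 0.5, leidenalg 0.10.2), giving 20 clusters. A cluster was named with at least 3 markers among its 50 top genes, and low-depth clusters were left unnamed. The authors' dermal list took precedence over clusters, for 7 cells. UMIs were summed per class and library and divided by the class total (CPM). Ratios have exact conditional binomial intervals and levels exact Poisson intervals (95%, scipy 1.17.1); shares have Clopper-Pearson intervals. Genes with 20 or more UMIs over both sides counted as measured, and 1.5-fold as apart; a measured gene at 0 on 1 side was set against 3 counts. The intervals' computation was tested on simulated counts. Scrublet called 183 of 9020 scored mutant barcodes (2.03%) and 260 of 8629 wildtype ones (3.01%); doublets were kept, and an alternative left out the 8% with the highest scores, 697 and 672 barcodes. Of the 36 members, 1 is not reported here. The text names every other member apart in a class, the classes of highest level, and up to 6 partner genes in the epidermal, placode, dermal and condensate comparisons with 50 or more UMIs and the largest ratios. Alternatives changed the scaling, UMI minimum, cell filter, clustering, gating and placode rule.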

Additional observations from a re-analysis of the deposited data

Results flagged for a closer look

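For 3 members the mutant over wildtype ratio passed 1.5-fold in opposite directions in different cell classes of the same 2 libraries, with counting intervals that exclude no difference on both sides. Itga2b, Itga9 and Itgb8 also passed 1.5-fold in both directions, but with an interval that includes no difference in at least 1 of the classes. The difference between the classes was not tested, since there is 1 library per genotype. The share of all genes that do the same is not given here, so these counts are not read as particular to the members. Itga4 was higher in mutant dermis (log2 1.38), mural-like cells (0.72) and mast-like cells (0.70), and lower in mutant muscle-like cells (-1.18). Lamb3 was higher in mutant dermis (0.996), where it had 85 UMIs in the mutant and 33 in the wildtype, and lower in mutant epidermis (-1.07). Lamc3 was lower in mutant dermis (-3.23) and higher in mutant mural-like cells (0.96), with 44 mutant and 18 wildtype UMIs there. The dermal ratios are over unlike mixtures of cells. Among the dermal clusters, Lamc3 was highest in the wildtype cluster led by Foxd1, which has no mutant counterpart. It was not lower in the mutant part of the Igfbp5 cluster. Without cells of 2 or more condensate genes it was still lower in mutant dermis. Lamb3 differed by less than 1.5-fold within each cluster led by Mfap5. The part of the mixture was not tested.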

How the results depend on the processing

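No paired analysis was possible because there is 1 library per genotype. Of 1755 values of single members under the alternatives, 1711 stayed within the counting interval of the value reported, 44 did not, and none that was apart changed sign. The number of members apart moved by more than 1.5 times in 23 cases. With no UMI minimum it was 11 in epidermis, 10 without placode genes, 14 in the dermis, 9 in endothelial-like, 7 in muscle-like, 7 in Schwann-like, 17 in macrophage-like and 8 in mast-like cells, and 14 between placode and other epidermal cells. With a minimum of 50 UMIs it was 3 in epidermis without placode genes, 3 in macrophage-like cells and 2 between placode and other cells. With placode cells of at least 2 core genes it was 3 in epidermis without placode genes. Without the top 8% of doublet scores it was 6 in muscle-like and 2 in macrophage-like cells. With cells of 1000 or more genes and under 5% mitochondrial UMIs it was 2 in endothelial-like cells. As a mean over cells it was 4 in endothelial-like, 5 in muscle-like and 10 in mast-like cells. At Leiden resolution 1.0 it was 4 in mast-like cells. With a marker gate per cell it was 2 in endothelial-like and 4 in muscle-like cells. With placode cells called after thinning it was 3 between placode and other cells. A lower or higher UMI minimum changes how many genes are measured. For the other settings the cause was not tested. The number measured and the share over all genes under each setting are not given here. These counts are therefore not read as results about the members. Leaving out shared barcodes, collagen-rich epidermal cells or Krt1 and Krt10 rich epidermal cells, all chosen after seeing the data, moved none of these counts by over 1.5 times. Itga6 in epidermis ranged from -0.999 to -0.84, Lamb3 from -1.07 to -0.91, and dermal Itga4 from 1.31 to 1.51.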

Other observations

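The cluster of melanoblast-like cells, the pigment cell precursors, held 88 mutant and 44 wildtype cells and was not compared between genotypes. Itga4 was its most counted integrin alpha chain in both libraries, with 99 UMIs (51.7 CPM) in the mutant and 59 UMIs (85.9 CPM) in the wildtype. Itgb1 had 336 UMIs (175 CPM) in the mutant and 133 UMIs (194 CPM) in the wildtype.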
